A study of Mus musculus with 24 samples.

Results

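The mitochondrially encoded genes are the genes of the circular mitochondrial chromosome. They were taken as the rows of the count table whose Ensembl gene maps to a mouse symbol starting with mt-. The annotation (GENCODE M21, mouse build GRCm38) holds 37 such genes, and 18 of them have a row in the table of 35191 genes. The 18 are all 13 mRNAs, both rRNAs and 3 of the 22 tRNAs, and the other 19 tRNAs are not analysed here. Every row of the table has at least 1 count in the 24 libraries together. Of the 18 genes, 15 passed the filter on low counts and were tested. The other 3 were mt-Atp8 with 15 counts, mt-Te with 8 counts and mt-Tc with 1 count, each summed over all libraries.

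The mitochondrial chromosome is copied and transcribed inside the organelle, separately from the nucleus. Both of its strands are transcribed as long RNAs that are cut at the tRNAs into mRNAs and rRNAs. Its mRNAs encode core subunits of the respiratory chain complexes I, III and IV and of the ATP synthase, its rRNAs form the mitochondrial ribosome, and all other proteins of the organelle come from nuclear genes. Nuclear chromosomes also carry pasted copies of mitochondrial DNA, annotated as pseudogenes.

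The study measured polyA RNA of mouse pituitaries, the gland whose endocrine cells make prolactin, growth hormone and other hormones, with a non-stranded library from 1.5 ug of total RNA. There were 8 groups of 3 libraries. Each sex had wild type animals with the genotype label wt (-), Cre control animals labelled wt (+), Egr1cKO control animals labelled FF (-), and Egr1cKO animals labelled FF (+), Egr1cKO standing for a conditional knockout of the transcription factor gene Egr1. The labels do not spell out FF, the Cre driver, the ages or whether a library is 1 animal, so the p-values cover no more than library-to-library spread, which may be technical. The numbers in the library titles form separate series for wt and FF animals, so a difference between those cannot be told apart from the series.

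The libraries held 15486069 to 26255343 counts. The targeted gene, Egr1, was not called lower in the libraries labelled Egr1cKO. In males it reached 63.4 to 268 CPM (counts scaled to a common library total) against 24.6 to 43.5 in the Egr1cKO control libraries. In females the ranges overlapped, at 6.73 to 175 against 9.38 to 34.1. Neither difference passed edgeR's test described below (adjusted p = 0.886 in males and 0.468 in females). The Cre control libraries, at 31.3 to 539 CPM in males and 59.9 to 512 in females, also reached high values, against 17.0 to 53.1 and 9.34 to 161 in wild type. Which part of Egr1 is removed is not stated, so this check does not settle the label, and the group names below are those of the labels. Hormone genes of the gland were present in every library, with Gh at 48745 to 318373 CPM. Female wild type replicate 1 stood apart from the other 2 libraries of its group in the mitochondrial counts, and results that rest on it are given with and without it.

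Where a mitochondrial gene has a near-identical nuclear copy, a read can fit both places. The sequences below are shown because they mark how far such copies differ from the genes. Each is a stretch of 90 bases in the sense direction of the gene, from the GENCODE M21 transcripts on GRCm38, with bases that differ between the gene and its copy in capitals. In the substitutions the base of the gene comes first, then the position counted from 1 at the first base of the gene, then the base of the copy.
mt-Co2, chrM:7013-7102, and its copy Gm28661, chr1:24615476-24615565 on the minus strand, with no difference: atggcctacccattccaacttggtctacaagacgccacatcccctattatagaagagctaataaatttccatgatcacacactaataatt
mt-Nd3, chrM:9459-9548: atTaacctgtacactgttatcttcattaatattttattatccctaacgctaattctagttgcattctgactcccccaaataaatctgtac
Gm28438, chr1:24613030-24613119 on the minus strand, T3C: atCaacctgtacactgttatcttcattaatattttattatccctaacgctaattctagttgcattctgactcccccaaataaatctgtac
mt-Co1, chrM:6390-6479: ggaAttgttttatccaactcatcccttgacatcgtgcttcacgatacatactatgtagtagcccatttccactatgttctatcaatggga
Gm29216, chr1:24616099-24616188 on the minus strand, A1066T: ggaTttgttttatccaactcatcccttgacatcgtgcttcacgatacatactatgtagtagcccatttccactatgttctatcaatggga
mt-Cytb, chrM:14146-14235: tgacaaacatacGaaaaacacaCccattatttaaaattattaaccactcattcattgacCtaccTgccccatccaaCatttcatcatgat
Gm11410, chr4:80003990-80004079 on the plus strand, G14A, C24T, C61T, T66C and C78T: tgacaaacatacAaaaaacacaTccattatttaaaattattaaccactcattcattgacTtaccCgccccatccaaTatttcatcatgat

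The copies of mt-Co2, mt-Nd3 and mt-Co1 belong to one row of 7 annotated pseudogenes on chromosome 1, from 24611535 to 24616197, a span of 4663 bases on the minus strand. They follow the order of the mitochondrial chromosome between chrM positions 6390 and 11042: Gm29216 (the end of mt-Co1), Gm28661 (mt-Co2), Gm10925 (mt-Atp6), Gm28437 (mt-Co3), Gm28438 (mt-Nd3), Gm10222 (mt-Nd4l) and Gm28439 (part of mt-Nd4). Over 4140 aligned bases the 7 copies and the genes differ at 2 positions, both shown above. The copy of mt-Cytb on chromosome 4 differs at 81 of 1142 aligned bases.

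The 13 mRNAs fell into sets with very different measured levels. For each gene, all windows of 50 bases were looked up in the annotated nuclear transcripts. Of the windows of mt-Co2, mt-Atp6, mt-Co3, mt-Nd3 and mt-Nd4l, 98.0 to 100% were found there without a change, and the median level of these 5 mRNAs over the 24 libraries lay between 0.834 and 17.1 CPM per kilobase of gene. The share was 51.1% for mt-Co1 and 62.2% for mt-Nd4, and at most 8.19% for mt-Nd1, mt-Nd2, mt-Nd5, mt-Nd6 and mt-Cytb, and the medians of these 7 mRNAs lay between 1647 and 8037 CPM per kilobase. With windows of 100 bases, the share remained at or above 97.6% for the same 5 genes. How reads that fit more than 1 place were counted is not given in the sources used here, so the measured levels of the 5 genes cannot be read as their RNA levels.

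**Figure D1:**
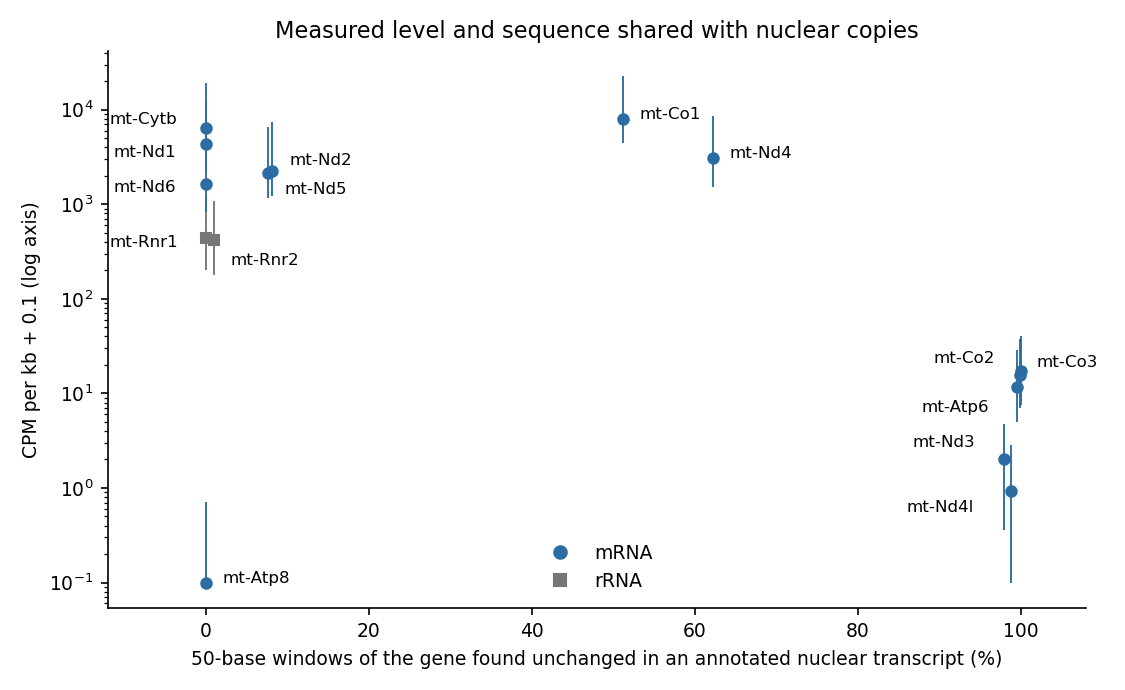
Median level of each mitochondrial mRNA (circles) and rRNA (squares) over the 24 libraries, in CPM per kilobase with a small constant added (log axis), against the percentage of its 50-base windows found unchanged in an annotated nuclear transcript; lines run from the lowest to the highest library. The 5 mRNAs with 98.0% or more of their windows shared lie at or below 17.1, and mt-Atp8 lies at 0 although none of its windows were found.

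The nuclear copies of these 5 genes carried counts too, for mt-Nd3 many more than the gene itself. Summed over the 24 libraries, mt-Co2, a core subunit of complex IV, had 7040 counts and its copy Gm28661 had 9721. The ATP synthase subunit gene mt-Atp6 had 4762 and Gm10925 had 7309, and mt-Co3 of complex IV had 7300 and Gm28437 had 6281. The complex I gene mt-Nd3 had 417 counts and its copy Gm28438 had 9517, which is 22.8 times as many. For mt-Co1 the order was the reverse, with 8280108 counts on the gene and 3293 on Gm29216. mt-Atp8, the other ATP synthase subunit gene, was above 0 in 11 of the 24 libraries, with at most 3 counts. None of its windows were found in an annotated transcript, but the stretch between the copies of mt-Co2 and mt-Atp6 has no annotated gene and was not searched. It also overlaps mt-Atp6 over 43 bases.

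The copies moved with the mitochondrial counts from library to library. The 7 copies together took 30.3 to 156.7 CPM, a wide range, but only 0.138 to 0.187% of the mitochondrial counts, a narrow one. In the female Egr1cKO libraries, for example, they took 154.4 to 156.7 CPM, and in the male Egr1cKO libraries 40.9 to 59.6 CPM. The counts assigned to nuclear copies therefore rose and fell by nearly the same factor as those of the organelle's own genes. Whether those reads came from the nuclear copies or from the mitochondrial chromosome was not tested.

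Among the 7 mRNAs with high counts, mt-Co1, the catalytic core of complex IV, had the highest median level, 8037 CPM per kilobase with a range of 4437 to 22677. It was followed by mt-Cytb, the complex III subunit, at 6388. The complex I subunits came next, mt-Nd1 at 4323, mt-Nd4 at 3049, mt-Nd2 at 2225, mt-Nd5 at 2128 and mt-Nd6 at 1647. The ranges over libraries overlapped between neighbours, but within a library the order held: each gene lay above the next in all 24 libraries, except that mt-Nd2 lay above mt-Nd5 in 16 of 24. This is an order of measured levels, divided by the whole length of each gene. Of the 50-base windows of mt-Co1 and mt-Nd4, 51.1% and 62.2% are shared with nuclear transcripts. Their levels may be too low if shared reads were left out, so the place of mt-Nd4 in the order is uncertain. mt-Nd6 lies on the strand opposite to the other mRNAs and overlaps mt-Nd5 over 14 bases, and because the libraries carry no strand, reads from opposite strands of this region cannot be told apart. The same holds for mt-Tp, the minus-strand tRNA for proline, at 637 CPM per kilobase.

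The ribosomal RNAs were low beside the mRNAs with high counts in this polyA selected RNA. The small-subunit rRNA mt-Rnr1 had a median of 436 CPM per kilobase and the large-subunit rRNA mt-Rnr2 had 416. Together they made up 1.96 to 3.82% of the mitochondrial counts.

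The share of all counts that fell on the 18 genes ran from 2.08% to 10.4%, with a median of 3.53%. In males the 3 libraries of each group had 3.48%, 4.80% and 2.08% (wild type), 3.20%, 2.08% and 2.26% (Cre control), 3.14%, 3.55% and 2.20% (Egr1cKO control) and 2.76%, 3.44% and 3.79% (Egr1cKO). All 4 male groups overlapped. In females they had 10.1%, 2.14% and 2.7% (wild type), 6.04%, 5.52% and 6.69% (Cre control), 4.33%, 6.87% and 3.50% (Egr1cKO control) and 8.73%, 9.13% and 10.4% (Egr1cKO). The female libraries with Cre lay between 5.52% and 10.4%, above every male library, and the female libraries without Cre spread from 2.14% to 10.1%. The means were 9.43% ± 0.884 (SD, n = 3) in female Egr1cKO, 4.90% ± 1.76 in female Egr1cKO control, 6.08% ± 0.586 in female Cre control and 4.96% ± 4.42 in female wild type. In male wild type, Cre control, Egr1cKO control and Egr1cKO the means were 3.45% ± 1.36, 2.51% ± 0.598, 2.97% ± 0.693 and 3.33% ± 0.524.

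**Figure D2:**
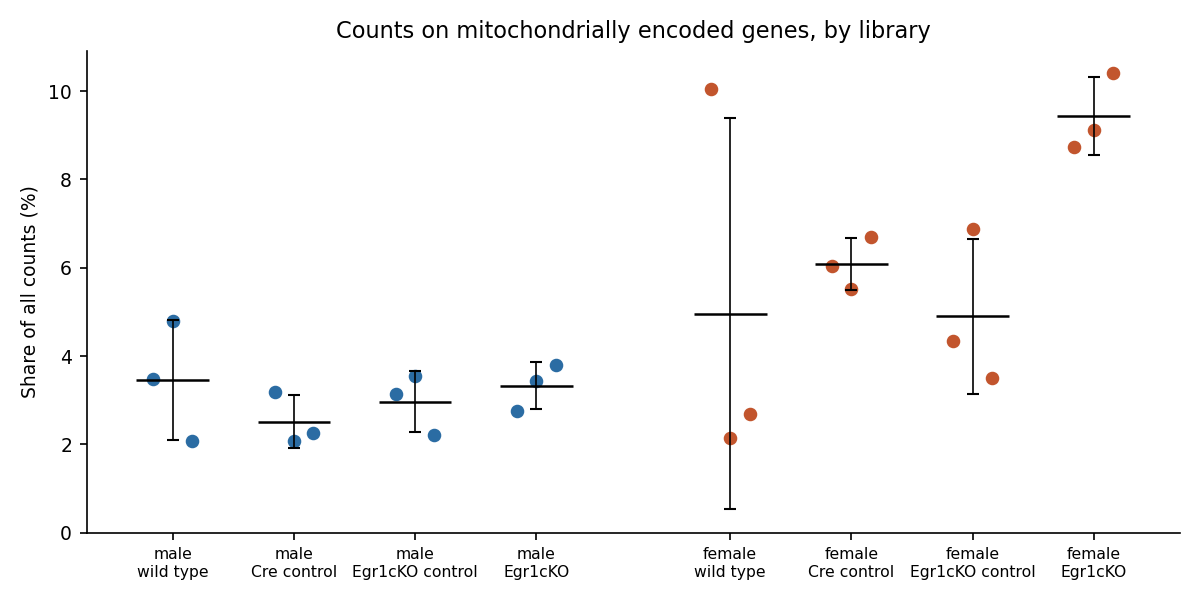
Percentage of all counts that fell on the 18 mitochondrially encoded genes; each point is a library, horizontal bars are group means and error bars are 1 SD of 3 libraries. The 3 female Egr1cKO libraries lie between 8.73% and 10.4%, and female wild type replicate 1, at 10.1%, lies apart from the other 2 of its group at 2.14% and 2.7%.

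The series names the sex difference in Egr1cKO mice and their controls as its question. All 15 tested genes were higher in females than in males in the libraries labelled Egr1cKO, and 9 of them passed the test (edgeR's quasi-likelihood test, Benjamini-Hochberg adjusted p under 0.05 over all 21927 genes tested). Of all genes tested, 13.1% were called in this comparison, 5.5% higher and 7.57% lower in females. The 9 were the complex I genes mt-Nd1, mt-Nd2, mt-Nd4, mt-Nd5 and mt-Nd6, mt-Cytb of complex III, mt-Co1 of complex IV and both rRNAs. The median log2 fold change of the 15 was 1.72, against -0.11 over all genes. The 15 genes are cut from shared long RNAs, so here and below their common direction is not 15 separate results. The levels of all 15 were higher in each of the 3 female than in each of the 3 male libraries, which held for 14.9% of all genes.

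The largest of these differences was that of mt-Nd2, a complex I membrane subunit. It had 5894, 7357 and 9096 normalised CPM (scaled by the trimmed mean of M values, TMM) in the female Egr1cKO libraries and 1438, 1784 and 2328 in the male ones. The log2 fold change was 2.01 ± 0.50 (SE), with an edgeR adjusted p of 0.0148. mt-Co1 had 26446, 34945 and 41757 normalised CPM in females and 9423, 11042 and 13104 in males, a log2 fold change of 1.62 ± 0.44 with an edgeR adjusted p of 0.0202. The rRNA mt-Rnr2 had 1590, 1747 and 2007 against 414, 341 and 590, with a log2 fold change of 1.99 ± 0.51 and an edgeR adjusted p of 0.0172. For each of the 3 genes the lowest female library lay above the highest male library.

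The 6 genes that were not called here had log2 fold changes of 1.52 to 1.94. They were mt-Co2, mt-Co3, mt-Atp6, mt-Nd3, mt-Nd4l and mt-Tp, with edgeR adjusted p-values from 0.0516 to 0.448, and 5 of them are the genes that share nearly all their sequence with the copies on chromosome 1. Of the 7 copies, 5 were called higher in females in the same comparison, with a median log2 fold change of 1.63 over the 7. The 9 calls rested on few libraries: leaving out 1 of the 6 libraries left between 0 and 9 calls, with 0 when male replicate 1, male replicate 2 or female replicate 3 was left out and 3 without female replicate 2. With the number of genes detected as a covariate, no member was called and the median log2 fold change was -0.25. The 2 groups did not overlap in this covariate, with at most 20445 genes in the female and at least 24821 in the male libraries. The adjusted values are therefore extrapolated, and this fit cannot decide how much of the sex difference remains.

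In the Cre control libraries the direction was the same, with all 15 genes higher in females and a median log2 fold change of 1.52. Only 2 passed edgeR's test, mt-Nd6 at 1.79 ± 0.48 (adjusted p = 0.0408) and mt-Nd2 at 1.78 ± 0.50 (adjusted p = 0.0496), beside 3.61% of all genes called and 1.6% called higher. mt-Nd6, the complex I subunit on the opposite strand, had 1414, 1223 and 1571 normalised CPM in females and 492, 355 and 369 in males. All but mt-Nd4l, 14 of the 15, lay higher in each of the 3 female than in each of the 3 male libraries, as did 15% of all genes. Neither call was kept when any 1 of the 6 libraries was left out. The number called was 7 by DESeq2 and 12 when only these groups were fitted, with the share of all genes called in those fits not given here.

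In the groups without Cre no mitochondrial gene was called between the sexes. In the Egr1cKO control libraries, beside 0.451% of all genes called, the 15 genes had a median log2 fold change of 0.78 with a lowest edgeR adjusted p of 0.417, and 0 had an unadjusted p under 0.05. The groups did not overlap for 4 of them, mt-Co1, mt-Cytb, mt-Atp6 and mt-Nd3, as for 10.9% of all genes. Without female Egr1cKO control replicate 2 the median was 0.26. DESeq2 called 0 as well. In wild type, beside 0.283% of all genes called, the median was 0.41 and the lowest edgeR adjusted p was 0.838, again with 0 genes under an unadjusted p of 0.05 and 0 by DESeq2. The wild type value turned with 1 library. mt-Cytb had 23991, 4279 and 5005 normalised CPM in the female and 8217, 10394 and 4134 in the male wild type libraries, and without female replicate 1 the median over the 15 genes was -0.89.

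**Figure D3:**
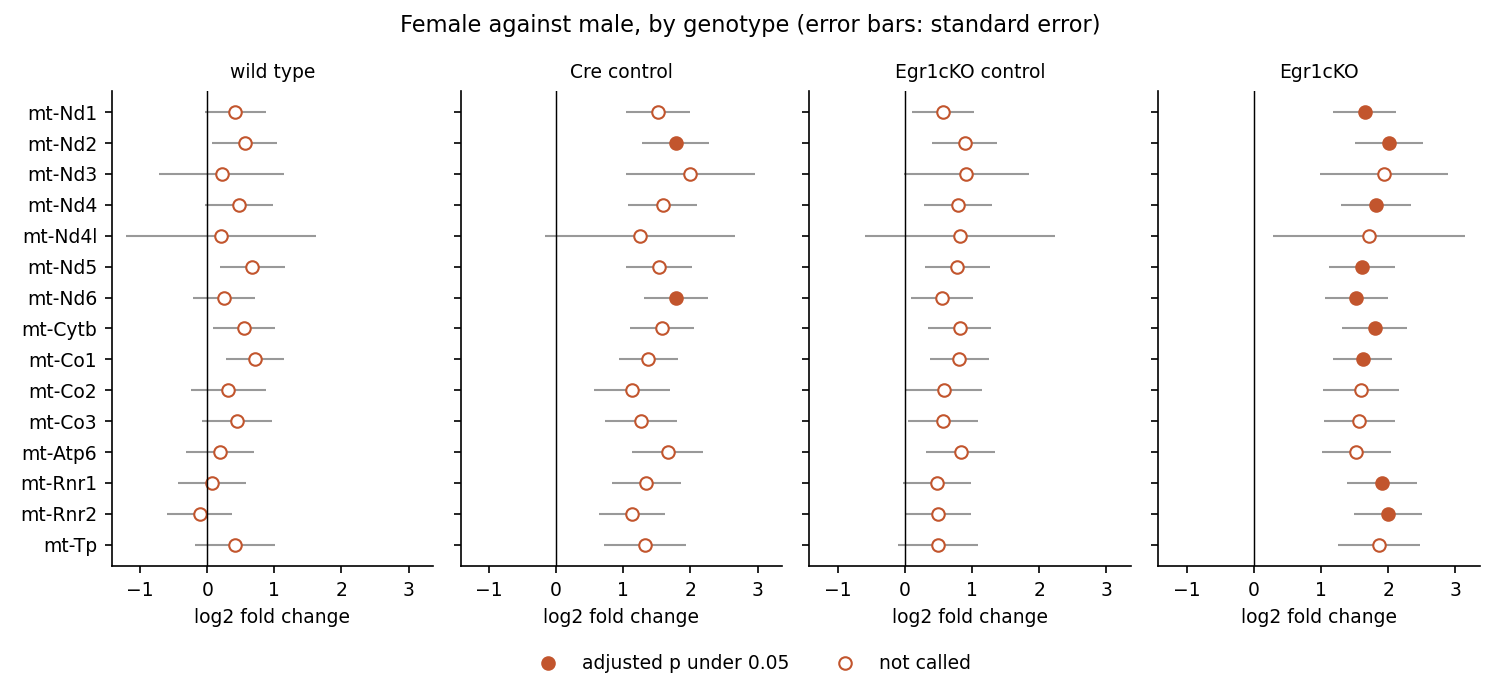
Log2 fold change of female against male libraries for the 15 tested genes in each genotype, with its standard error; filled points passed edgeR's test at an adjusted p under 0.05. The points lie near 0.41 (median) in wild type and 0.78 in Egr1cKO control, and at 1.52 in Cre control and 1.72 in Egr1cKO, where 2 and 9 are filled.

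Averaged over the 4 genotypes, a comparison added after the data were seen, 13 of the 15 genes were called higher in females, beside 21.7% of all genes called and 9.99% called higher. The median log2 fold change of the 15 was 1.04, against -0.06 over all genes. It was 1.31 ± 0.25 for mt-Nd2, the largest (edgeR adjusted p = 0.000968), 1.18 ± 0.24 for mt-Cytb (adjusted p = 0.00133) and 1.13 ± 0.22 for mt-Co1 (adjusted p = 0.000888). The 2 that did not pass were mt-Nd3 at 1.27 ± 0.47 and mt-Nd4l at 0.997 ± 0.71, the genes with the fewest counts. Leaving out each library in turn left 11 to 14 calls, with 11 without female wild type replicate 1. With the number of genes detected as a covariate the count was 0 and the median 0.10.

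Whether the sex difference itself differed with Cre was tested in 3 ways, and no mitochondrial gene passed. The sex by Cre interaction in the wt animals had a median of 1.10 (0.128% of all genes called, 0.0638% in each direction) and a lowest edgeR adjusted p of 0.222, with 1 gene at an unadjusted p under 0.05. The sex by Egr1cKO interaction had a median of 1.01 (0.0228% of all genes called, 0.00456% higher and 0.0182% lower) and a lowest edgeR adjusted p of 0.583, also with 1 gene at an unadjusted p under 0.05. The mean of both, also added after the data were seen, had a median of 1.08 (2.06% of all genes called, 0.748% higher) and a lowest edgeR adjusted p of 0.117, with 8 of 15 genes at an unadjusted p under 0.05. In each test all 15 genes had a positive value, beside 45.1 to 47.8% of all genes, and DESeq2 called 0. These signs are not separate results, because the genes share long RNAs and the last test is the mean of the others. With the number of genes detected as a covariate the sex by Egr1cKO median was -0.41. Female wild type replicate 1 decided 2 of these tests: without it 13 genes were called in the sex by Cre interaction and 13 in the mean of both. The share of all genes called without it is not given here, so these counts cannot be set against other genes. Of the 42 nuclear respiratory chain genes described below, 0 were called in the sex by Cre interaction (median 0.69). Leaving out each library in turn gave 0 to 18 of them higher and 0 to 5 lower. The share of all genes called in those fits is not given here either.

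Between the female Egr1cKO and Egr1cKO control libraries all 15 genes were higher in Egr1cKO, with a median log2 fold change of 0.96, but none passed edgeR's test, beside 2.21% of all genes called (0.762% higher). The lowest adjusted p was 0.183, 6 of the 15 had an unadjusted p under 0.05, and DESeq2 called 0. mt-Rnr2 had 1590, 1747 and 2007 normalised CPM in the Egr1cKO libraries against 732, 1151 and 404 in the controls, a log2 fold change of 1.22 ± 0.50. mt-Rnr1 came to 1.17 ± 0.51, mt-Nd2 to 1.02 ± 0.49, mt-Cytb to 0.99 ± 0.47 and mt-Co1 to 0.95 ± 0.44. The groups did not overlap for 9 of the 15 genes, as for 9.57% of all genes. For mt-Co1 they did, with 14073, 26450 and 12890 normalised CPM in the controls, the second of them just above the lowest Egr1cKO library at 26446.

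In males the same comparison had a median log2 fold change of -0.09, and 0.04 with library totals as the only scaling. The values ran from -0.54 to 0.14. Only for mt-Nd3, lower in Egr1cKO, did the groups not overlap, as for 10.2% of all genes, and no gene was called by edgeR or DESeq2 or had an unadjusted p under 0.05, beside 0.041% of all genes called.

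No member was called between Cre control and wild type in either sex. In males all 15 genes were lower with Cre, with a median log2 fold change of -0.85, none called by edgeR (0.233% of all genes were, 0.0365% higher and 0.196% lower) or DESeq2 and 2 at an unadjusted p under 0.05. mt-Nd6 had 1061, 1364 and 537 normalised CPM in wild type and 492, 355 and 369 in Cre control males. It was the only gene whose groups did not overlap (10.5% of all genes were lower in this way), at -1.28 ± 0.47 with an edgeR adjusted p of 0.341. The values for mt-Nd2 and mt-Co1 were -0.97 ± 0.49 and -0.60 ± 0.43.

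In females the median of the Cre comparison was 0.20, and no gene was called by edgeR (1.2% of all genes were), had an unadjusted p under 0.05 or was called by DESeq2. Without wild type replicate 1, however, 11 genes were called higher with Cre, with a median of 1.50. Egr1cKO control against wild type females had a median of 0.04 and no call, beside 0.0% of all genes, and 8 calls with a median of 1.30 without that library. The share of all genes called without that library is not given here for either comparison. No gene was called by edgeR or DESeq2 in the average Cre comparison (median 0.05, beside 6.89% of all genes), in the male Egr1cKO control against wild type comparison (median -0.28, beside 0.0% of all genes), or in the Egr1cKO difference less the Cre difference within either sex (medians 0.74 in males and 0.76 in females, beside 0.0% and 0.00456% of all genes). Without female wild type replicate 1 the median of the last of these in females was -0.47, and that of the average Cre comparison 0.38. Leaving out each library in turn gave medians of 0.40 to 1.14 for the male difference less Cre. None of these comparisons had a mitochondrial gene at an unadjusted p under 0.05.

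The mitochondrial share moved together with other measures of the same libraries. The 6 libraries with the highest shares, 6.69 to 10.4%, were all female, and at an equal depth of 15486069 counts they had 18442 to 21662 genes detected and 683 to 1209 CPM of Malat1, an RNA kept in the nucleus. The 6 libraries with the lowest shares, 2.08 to 2.7%, of which 2 were female, had 23621 to 25317 genes and 1498 to 2148 CPM of Malat1. Female wild type replicate 1, at 10.1%, had 18609 genes and 683 CPM of Malat1, and the other 2 of its group had 23621 and 24765 genes and 1641 and 1684 CPM. Malat1 was as low in 2 wild type males, at 624 and 788 CPM, with shares of only 4.80% and 3.48%. Malat1 was the only nuclear-retained RNA set beside the share here. Of the others listed, Kcnq1ot1, Snhg11, Meg3 and Neat1 were higher in females on average over genotypes, as given below. RNA quality was not measured in the sources used here, and its part in the differences was not tested.

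**Figure D4:**
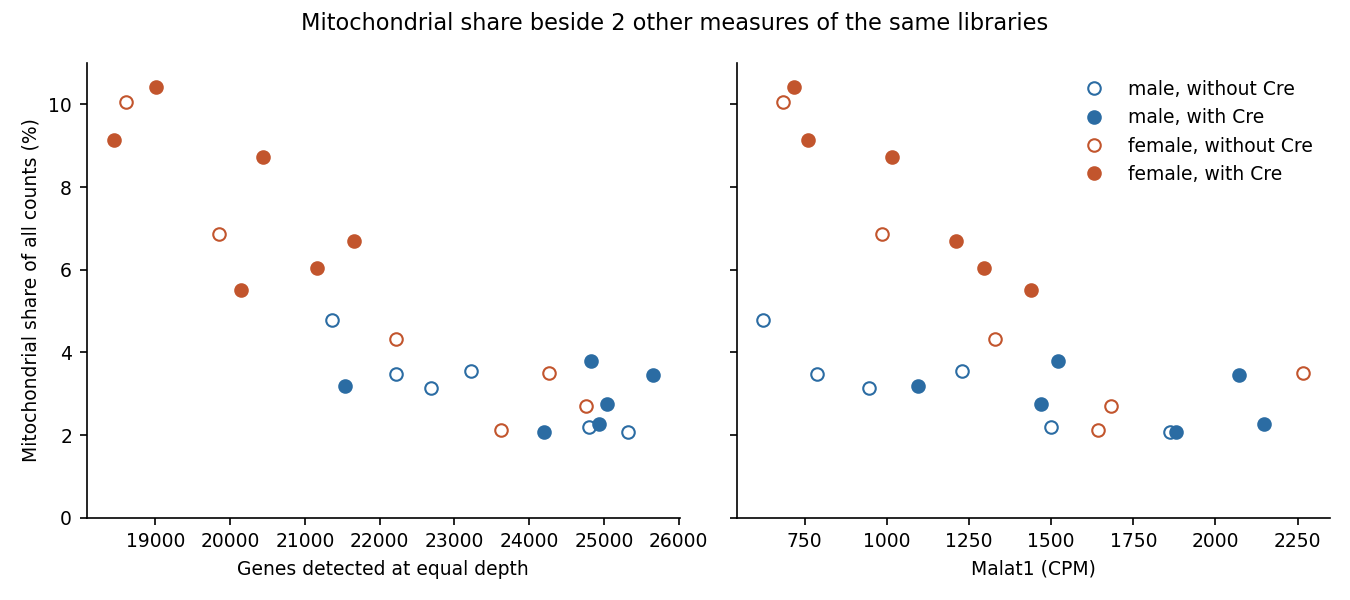
Mitochondrial share of all counts against the number of genes detected at equal depth (left) and the CPM of Malat1 (right); each point is 1 of the 24 libraries, coloured by sex and filled where the animal carried Cre. The 4 libraries with shares of 8.73% or more had 18442 to 20445 genes detected.

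Levels of cell type markers also differed between groups. In bulk tissue, fewer cells of a type and less RNA per cell cannot be told apart. The lactotrope marker Prl lay at 22504 to 43618 CPM in the female Egr1cKO libraries against 81011 to 126268 in their controls, and at 3711 to 4720 in Cre control males against 32552 to 44930 in wild type males. The summed somatotrope markers (2 of 2 detected) lay at 48877 to 57365 CPM in female Egr1cKO and at 116291 to 130119 in male Egr1cKO libraries. The 3 corticotrope and melanotrope markers, all detected, summed to 87930 to 188553 CPM in female Egr1cKO and to 42399 to 111568 in male Egr1cKO libraries. The part of these cell types in the mitochondrial differences was not tested. Markers of tissues rich in mitochondria stayed low, with at most 3.47 CPM for the 2 heart muscle markers, 15.95 for the 3 skeletal muscle markers and 89.4 for the 2 brown fat markers, of which Ucp1 was at 0 in 11 libraries.

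Within the mitochondrial mRNA counts the makeup varied less than the mitochondrial share itself, with shifts between groups. mt-Cytb made up 19.6 to 22.0% of them in every library. mt-Co1 made up 32.0 to 34.0% in male wild type and 37.3 to 38.6% in male Cre control libraries, groups that did not overlap. In male Egr1cKO control it was 33.5 to 35.7% and in male Egr1cKO 35.6 to 38.2%. In females it was 34.1 to 35.0% in Cre control and 33.9 to 35.2% in Egr1cKO, and 34.8%, 40.5% and 39.4% in the 3 wild type libraries. mt-Nd6 ran the other way in males, 2.71 to 2.82% in wild type and 1.77 to 2.15% in Cre control. In the wt females mt-Nd6 was higher with Cre, at 1.95 to 2.26% in wild type and 2.34 to 2.41% in Cre control, again without overlap. The FF females did not show this rise, with 2.06 to 2.12% in Egr1cKO control and 1.95 to 2.10% in Egr1cKO, groups that overlapped.

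**Figure D5:**
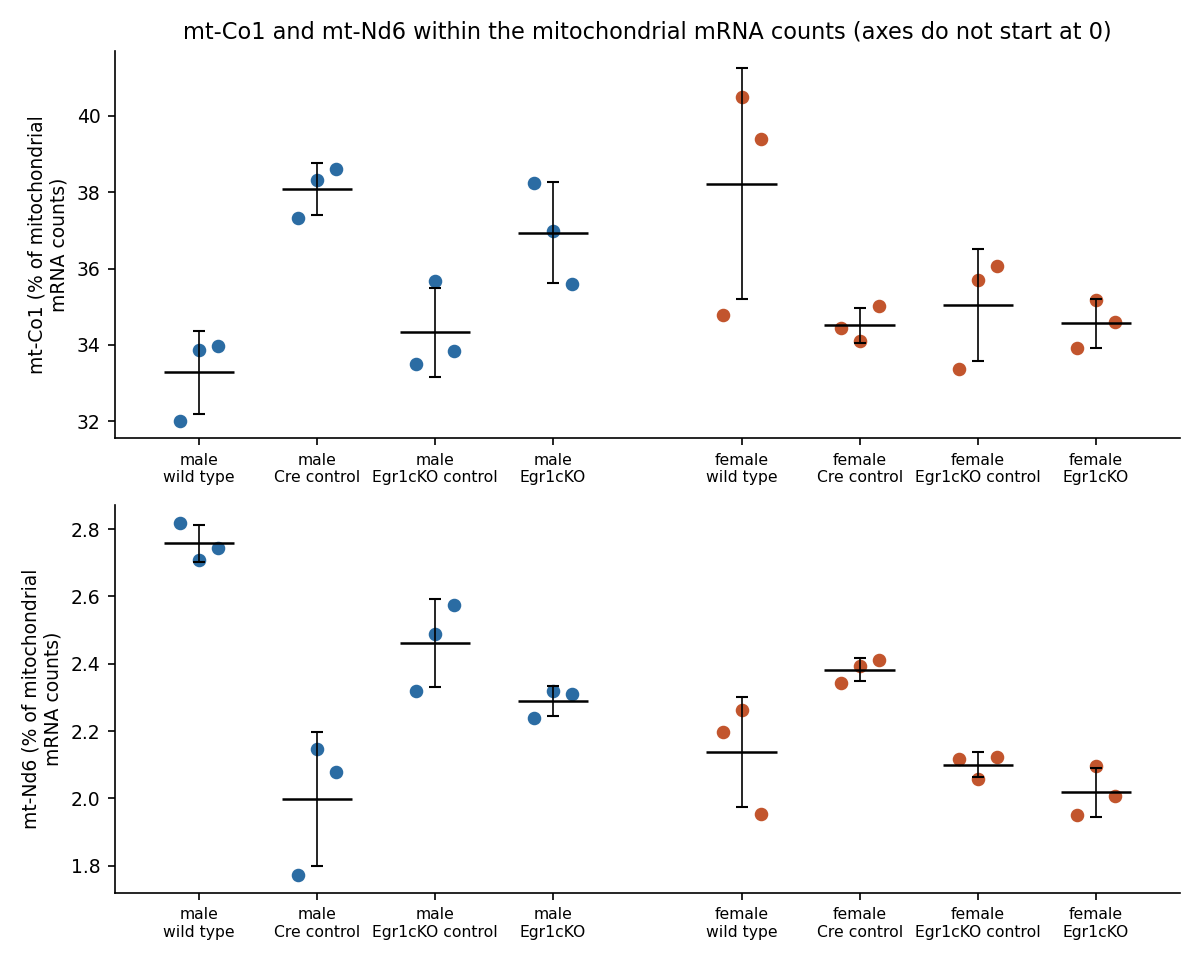
mt-Co1 (top) and mt-Nd6 (bottom) as a percentage of the mitochondrial mRNA counts; points are libraries, horizontal bars group means and error bars 1 SD of 3 libraries, and the axes do not start at 0. In males without and with Cre (wild type and Cre control), mt-Co1 goes from at most 34.0% to at least 37.3% and mt-Nd6 from at least 2.71% to at most 2.15%. In females of the same genotypes mt-Nd6 goes from at most 2.26% to at least 2.34%. In FF females it lies at 2.06 to 2.12% in Egr1cKO control and at 1.95 to 2.10% in Egr1cKO.

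Nuclear genes that act on the mitochondrial chromosome and its RNA were described from lists chosen with results of these data known, for the sex difference averaged over genotypes (9.99% of all genes higher and 11.7% lower in females, median -0.06). Of 18 genes for mitochondrial transcription and its regulation, 5 were higher in females and 0 lower, with a median log2 fold change of 0.21. They were the transcription termination factor genes Mterf1b (1.25 ± 0.25), Mterf1a (0.70 ± 0.22) and Mterf3 (0.41 ± 0.14), and the regulators of nuclear genes for mitochondria Nrf1 (0.32 ± 0.10) and Gabpb1 (0.40 ± 0.13). Mterf1a and Mterf1b are close paralogs, and how reads were split between them is uncertain. The count ran from 2, without female Egr1cKO control replicate 2, to 6 when each library was left out in turn, and was 3 without female wild type replicate 1, 1 with library totals as the only scaling, and 0 with the genes detected as a covariate.

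The lists for mitochondrial DNA and for RNA processing held calls in both directions. Of 16 genes for DNA replication and packaging, 5 were higher and 2 lower (median 0.06), among them the topoisomerase gene Top3a at 0.40 ± 0.11 and the pyrimidine nucleotide carrier gene Slc25a33, which fell by 0.45 ± 0.13 on the log2 scale. Of 19 genes for RNA processing, polyadenylation and decay, 6 were higher and 3 lower (median 0.06), with the RNA-binding protein gene Fastkd1 at 0.39 ± 0.12. Of 19 genes for translation and rRNA modification, 3 were higher and 0 lower (median 0.03): the elongation factor gene Gfm2 at 0.42 ± 0.09, the initiation factor gene Mtif2 at 0.48 ± 0.13 and Oxa1l, which inserts the products into the inner membrane, at 0.24 ± 0.08. With the covariate these lists held 0 higher calls in total and 1 lower call.

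The counts of called nuclear-encoded partners of these mRNAs changed with genotype, as did the share of all genes called. Averaged over genotypes, of 42 nuclear respiratory chain subunit and assembly genes, 1 was higher and 7 lower in females, beside 9.99% and 11.7% of all genes. The median log2 fold change of the 42 was -0.03, where the 15 mitochondrial genes had 1.04. Leaving out each library in turn gave 1 to 4 higher and 4 to 9 lower. In Cre control 4 of the 42 were higher and 1 lower (median 0.38, 33 of 42 positive), beside 1.6% and 2.01% of all genes. In Egr1cKO 1 was higher and 5 lower (median 0.06), beside 5.5% and 7.57% of all genes. The same leave-outs gave 0 to 20 higher and 0 lower in Cre control, and 0 higher and 1 to 5 lower in Egr1cKO. In the sex by Cre test averaged over both backgrounds 6 of the 42 were called higher, beside 0.748% of all genes. That count rested on single libraries, with 0 to 22 higher and 0 to 5 lower when each was left out in turn. On average over genotypes, of 19 genes for mitophagy and mitochondrial mass, 0 were higher and 6 lower (median -0.19). The 6 were the mitophagy receptor genes Bnip3 (-0.93 ± 0.15), Bnip3l (-0.47 ± 0.10) and Fundc1 (-0.38 ± 0.11), the outer membrane genes Vdac1 (-0.31 ± 0.09) and Tomm20 (-0.46 ± 0.14), and the chaperonin gene Hspd1 (-0.32 ± 0.12). With the covariate 0 of the 42 and 1 of the 19 were called lower. Of 5 nuclear-retained RNAs, Kcnq1ot1 (0.62 ± 0.12), Snhg11 (0.83 ± 0.18), Meg3 (0.73 ± 0.19) and Neat1 (0.71 ± 0.22) were higher in females and Malat1 was not called (-0.07 ± 0.16).

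In the average Cre comparison, in which no mitochondrial gene was called, a few genes of these lists were, beside 2.8% of all genes higher and 4.08% lower with Cre. Ppargc1a, a coactivator of genes for mitochondria, was higher by 0.80 ± 0.19 on the log2 scale (edgeR adjusted p = 0.0096). Slc25a33 was lower, at -0.49 ± 0.13, and Phb, which encodes a scaffold protein of the inner membrane, was higher at 0.49 ± 0.12. Of the 42 nuclear respiratory chain genes, 3 were higher (Cox6a1 at 0.37 ± 0.11, Cycs at 0.47 ± 0.14 and Uqcrc1 at 0.26 ± 0.08), with a median of 0.22. That count ran from 0 to 5 when each library was left out in turn, was 7 with the covariate and 16 with library totals as the only scaling.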

How the data were processed

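The authors deposited 1 table of whole-number read counts per Ensembl gene for 24 pituitary libraries; per the submitters' processing notes, Trim Galore 3.8.2, FastQC and STAR 2.7.9 were used with the build GRCm38, and the counting tool and the treatment of multiply mapped reads were not given in the sources used here. Groups came from the library titles and genotype labels, with 3 libraries each. Symbols were taken from GENCODE M21 for 35065 of the 35191 genes. Genes passing edgeR's filterByExpr were scaled by TMM and tested with edgeR 4.0.16 (R 4.3.3) quasi-likelihood tests in 1 fit over all 8 groups with 16 residual degrees of freedom, at a Benjamini-Hochberg adjusted p under 0.05, and the code was tested on simulated counts. CPM per library is on the total count unless called normalised. The share of all counts on the members was given no test. The members and lists were chosen with earlier results of these data known. Genes detected at equal depth are the expected number of genes with a count when 15486069 counts, the smallest total, are drawn from a library. Nuclear copies were found with blastn 2.17.0 among annotated transcripts (at least 100 aligned bases). All mitochondrial mRNAs, rRNAs and tested tRNAs are named, and of each nuclear list up to 4 genes with the smallest p in the average Cre comparison and the called genes where 6 or fewer. Libraries of a group differed beyond sampling noise in all 24 pairs (lowest chi-square per degree of freedom 16.3). The alternatives tried were other scalings, no filter, DESeq2, fits of only the groups compared, the number of genes detected as covariate, and leaving out each library.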

Additional observations from a re-analysis of the deposited data

How the results depend on the processing

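Counts below are of mitochondrial genes called. The share of all genes called under each setting is not given here, so the counts show only how the calls moved. Without a filter on low counts, which also tests mt-Tc, mt-Te and mt-Atp8, the counts were 9 for the Egr1cKO difference in females, 5 for Cre in males, 3 for sex by Egr1cKO, 4 for sex by Cre, 10 for its mean over both backgrounds, 13 for sex in Cre control and 1 for sex in Egr1cKO control. With only the groups compared in the fit they were 1 for the Egr1cKO difference in females and 12 for sex in Cre control, which had 1 with DESeq2 size factors and 7 with DESeq2's test. With the genes detected as a covariate they were 1 for Cre in males, 0 for sex in Egr1cKO and 0 for sex on average. With this covariate 13 of the 15 sex differences in Egr1cKO were negative, and none was called, with values of -0.62 to 0.09. Of the 9 called without it, 7 turned, mt-Co1 (-0.11), mt-Cytb (-0.079), mt-Nd1 (-0.17), mt-Nd4 (-0.16), mt-Nd5 (-0.25), mt-Nd6 (-0.29) and mt-Rnr1 (-0.049). On average over genotypes 4 of the 15 were negative, and of the called ones mt-Co2 (-0.11), mt-Rnr2 (-0.032) and mt-Tp (-0.014). The cause of these changes was not tested. The covariate shares its counts with the outcome, since counts on mitochondrial genes leave fewer for others. In Egr1cKO the female and male libraries also did not overlap in it, so the adjusted sex differences there are extrapolated. Leaving out each library in turn gave 0 to 11 for Cre in females, 0 to 13 for sex by Cre and for its mean over both backgrounds, 0 to 0 for sex in Cre control, 0 to 9 for sex in Egr1cKO and 0 to 8 for Egr1cKO control against wild type females. Outside Prl, Gh and Pomc the mitochondrial share was 4.81% in male wild type, 2.91% in male Cre control, 4.13% in male Egr1cKO control, 4.17% in male Egr1cKO, 6.84% in female wild type, 7.76% in female Cre control, 6.74% in female Egr1cKO control and 12.5% in female Egr1cKO. With library totals as the only scaling, the median of all genes moved from 0.01 to 0.34 for Cre in males and from -0.11 to -0.30 for sex in Egr1cKO. No paired analysis was possible because the groups share no replicate numbers in the labels. Low counts limit mt-Nd4l and mt-Nd3, at 161 and 417 counts in all, and mt-Atp8. For mt-Nd4l and mt-Nd3, which share nearly all their sequence with nuclear copies, the counting of shared reads is not known.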
